A study of Mus musculus with 10 samples.

Results

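The immunoglobulin heavy chain constant genes were taken as the rows named Ighm, Ighd, Ighg1, Ighg2b, Ighg2c, Ighg3, Igha and Ighe, 8 genes of the 56893 in the deposited count table. Poly(A) RNA had been sequenced from primary B cells and T cells of mouse spleen under CRISPR interference, in which a guide RNA brings a repressor built on inactive Cas9 to a promoter. The guides targeted Pou2f1, which encodes Oct-1, a factor that binds the octamer motif of immunoglobulin promoters and enhancers. The 5 groups were B cells with sgRNA-P1 (against promoter P1), B cells with sgRNA-P2 (against promoter P2), B cells labelled Mock, T cells with sgRNA-P1 and T cells labelled Mock. The sources used here do not state what the mock treatment contained, the strain and age of the mice, how cells were selected or stimulated, or the time under the guides. Between the 2 columns of a group the differences were smaller than sampling noise, so both were summed and count as 1 sample. These libraries held 49066261 reads (B sgRNA-P1), 28118839 (B sgRNA-P2), 33842813 (B mock), 39352816 (T sgRNA-P1) and 71858511 (T mock). With 1 sample a group there is no replicate check, and brackets hold 95% intervals of counting error alone.

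Each heavy chain constant gene encodes the part of an antibody that sets its class. A rearranged variable exon is first transcribed together with Ighm and Ighd, and naive B cells make IgM and IgD from that one long transcript by alternative splicing and polyadenylation. Class switch recombination, a rearrangement of the DNA, removes Ighm and Ighd and places an IgG, IgE or IgA gene next to the variable exon. Unrearranged constant genes can also be transcribed from promoters of their own, and a count over a constant gene does not tell such germline RNA from antibody messages.

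In the deposited table all 8 genes lie on chromosome 12, minus strand, and mm39 is the mouse build in the submitters' processing notes. From the variable side the order was Ighm (113382178 to 113386350), Ighd (113370224 to 113379944), Ighg3 (113319844 to 113324852) and Ighg1 (113288860 to 113294143). Ighg2b (113266585 to 113271553), Ighg2c (113248945 to 113252552), Ighe (113232880 to 113236868) and Igha (113218450 to 113223856) followed. Igha had 4 merged exon blocks and the other members had 6 each, so the membrane and secreted forms of an isotype were counted together. No row of the table overlapped a member. The start of the constant region shows how alike the 4 IgG genes are and how far Ighm and Ighd stand from them. The sequences below are bases 1 to 60 of the GENCODE M21 transcripts (GRCm38), 5′ to 3′, and capitals in the IgG genes mark bases that differ from Ighg2b.
Ighg2b: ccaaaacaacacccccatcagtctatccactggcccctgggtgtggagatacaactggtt
Ighg2c: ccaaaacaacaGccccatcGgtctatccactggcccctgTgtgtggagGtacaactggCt
Ighg1: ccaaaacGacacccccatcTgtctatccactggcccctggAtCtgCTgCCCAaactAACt
Ighg3: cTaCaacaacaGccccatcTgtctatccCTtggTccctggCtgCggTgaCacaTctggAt
Ighm: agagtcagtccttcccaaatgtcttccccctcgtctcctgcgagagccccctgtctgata
Ighd: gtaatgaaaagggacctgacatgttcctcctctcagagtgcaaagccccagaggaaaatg

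Over these 60 bases, Ighg2c differed from Ighg2b at 5 positions, and Ighg1 and Ighg3 at 13 each. Over the start that the transcripts of a gene share, Ighg2b and Ighg2c were identical at 86.3% of 998 aligned bases, the closest pair among the members. Ighm and Ighd were identical at 72.3% of 694, but that alignment left 626 bases opposite gaps, against 7 in the closest pair. Of all stretches of 50 bases, 4.15% in Ighg2b, 5.49% in Ighg2c, 1.58% in Ighg3 and 0.39% in Ighg1 occurred unchanged in another member. None did at 100 bases, nor at 50 bases in Ighm, Ighd, Igha or Ighe. Reads shorter than these shared stretches could be split between IgG genes. The sources used here do not state how such reads were counted, and the division among IgG genes is uncertain to that extent.

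Ighm and Ighd held most of the constant gene reads in every B cell library. Ighm, the gene of the first antibody class made, stood at 5773 CPM, read counts scaled to the size of each library, with sgRNA-P1, 5768 CPM with sgRNA-P2 and 5605 CPM in mock B cells. In T cells it stood at 322.8 CPM with sgRNA-P1 and 341.3 CPM in mock. Ighm was thus high in all 3 B cell libraries, and lower in both T cell libraries, where it still had 12891 reads with sgRNA-P1 and 24616 in mock. Ighd, the gene of the class that naive B cells carry beside IgM, had 3167, 3068 and 2951 CPM in B cells with sgRNA-P1, with sgRNA-P2 and in mock. Its T cell values were 6.21 CPM with sgRNA-P1 and 6.45 CPM in mock. Both genes were higher in each B cell library than in either T cell library. The share of all genes with such a separation was not counted, so it only describes Ighm and Ighd. In the model over the 5 libraries given below, 31.8% of 17581 genes were called higher in B cells and 32.4% lower. Differences between the cell types were thus common.

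The 6 genes reached by class switching were far lower. Igha, whose product is the antibody of mucosal surfaces, had 53.6, 61.7 and 62.6 CPM in B cells with sgRNA-P1, with sgRNA-P2 and in mock. Its T cell levels were 2.88 CPM with sgRNA-P1 and 3.11 CPM in mock. Ighg2b, an IgG gene, had 39.1, 38.3 and 40.4 CPM in the same order of B cell libraries, and 0.877 and 0.721 CPM in sgRNA-P1 and mock T cells. Its 3 B cell values lay within one another's intervals.

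Ighg3, the IgG gene next to Ighd, had 31.1 CPM with sgRNA-P1, 31.3 CPM with sgRNA-P2 and 32.4 CPM in mock B cells. T cells held 5 reads of it with sgRNA-P1 and 15 in mock. Ighg1 stood at 9.21, 8.82 and 9.84 CPM in B cells with sgRNA-P1, with sgRNA-P2 and in mock, against 1 read in T cells with sgRNA-P1 and none in mock. Ighg2c stood at 5.23 CPM with either guide and 5.38 CPM in mock B cells, and no T cell read was assigned to it. Ighe, the IgE gene, was at the edge of detection, with 8, 5 and 10 reads in B cells with sgRNA-P1, with sgRNA-P2 and in mock and no read in T cells, where 3 reads would be 0.0751 CPM with sgRNA-P1 and 0.0416 CPM in mock.

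**Figure D1:**
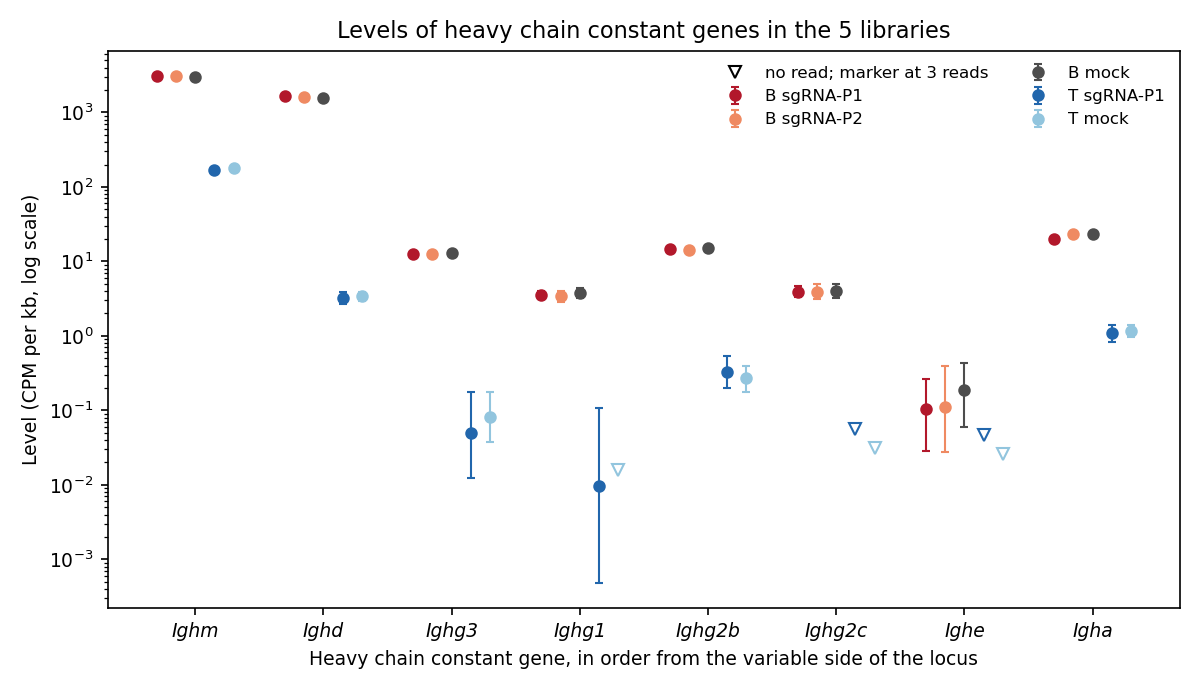
Level of each constant gene in CPM per kilobase of gene length, on a log axis, in the order of the genes along the locus. Points are single libraries, bars are 95% counting intervals, and open triangles mark no read, drawn at the level of 3 reads. Ighm and Ighd lie above 1500 in the 3 B cell libraries, and Ighm keeps a level above 150 in both T cell libraries.

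Genes differ in length, so their order was read from levels per kilobase of the deposited gene length. It was the same in the 3 B cell libraries: Ighm, Ighd, Igha, Ighg2b, Ighg3, Ighg2c, Ighg1, Ighe. In mock B cells the level of Ighm per kilobase was 1.91 times that of Ighd [1.89 to 1.94], and that of Ighd was 66.2 times that of Igha [62.3 to 70.4]. Igha stood 1.56-fold above Ighg2b [1.41 to 1.72], and Ighg2b 1.17-fold above Ighg3 [1.04 to 1.31]. The neighbours Ighg2c and Ighg1 could not be ordered per kilobase. Their ratio of 1.07 in mock [0.816 to 1.38] had an interval that includes 1, as it did with both guides. That ratio depends on deposited lengths of 1326 bases for Ighg2c and 2592 for Ighg1, with last exon blocks of 84 and 1385 bases. Without length, Ighg1 was above Ighg2c in the 3 B cell libraries, at 9.84 against 5.38 CPM in mock. Among all genes, Ighm ranked number 7 and Ighd number 10 per kilobase in each B cell library, while Ighm ranked 195 in sgRNA-P1 T cells and 185 in mock T cells.

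In T cells the first 5 genes stood in the same order. Ighm led Ighd per kilobase by 52.4-fold with sgRNA-P1 [43.8 to 63.1] and by 53.3-fold in mock T cells [46.7 to 60.8]. Ighd was followed by Igha, at 3.03-fold lower with sgRNA-P1 [2.18 to 4.18] and 2.92-fold lower in mock [2.32 to 3.69], and then by Ighg2b and Ighg3. Ighg1, Ighg2c and Ighe had too few reads in T cells to be ordered among themselves.

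The composition of the isotypes differed between the cell types more than between guides. Per length, the Ighd level was 54.5% of the Ighm level in B cells with sgRNA-P1 [54.0 to 55.0], 52.8% with sgRNA-P2 [52.2 to 53.4] and 52.3% in mock B cells [51.7 to 52.8]. In T cells it was 1.91% with sgRNA-P1 [1.59 to 2.28] and 1.88% in mock [1.64 to 2.14]. Among B cells the interval with sgRNA-P1 lay above the other two, whose intervals overlapped. The 8 genes together took 0.892% of all reads with sgRNA-P1, 0.898% with sgRNA-P2 and 0.870% in mock B cells. They took 0.0338% with sgRNA-P1 and 0.0353% in mock T cells.

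Of the reads on the 8 genes, the 6 switched isotypes held 1.53% in B cells with sgRNA-P1 [1.47 to 1.58], 1.62% with sgRNA-P2 [1.55 to 1.69] and 1.73% in mock B cells [1.67 to 1.80] (Wilson intervals). Their share was 1.20% with sgRNA-P1 [0.97 to 1.5] and 1.15% in mock T cells [0.979 to 1.35]. Igha alone held 0.591% with sgRNA-P1 [0.559 to 0.624], 0.687% with sgRNA-P2 [0.643 to 0.734] and 0.719% in mock B cells [0.677 to 0.764]. The 4 IgG genes held 0.933% with either guide, [0.893 to 0.974] for sgRNA-P1 and [0.881 to 0.987] for sgRNA-P2. In mock B cells they held 1.01% [0.961 to 1.06], and both guide intervals overlapped that of mock. The switched share was lowest with sgRNA-P1 in B cells, and its interval did not reach that of mock. A share also depends on the other reads it is taken from. With sgRNA-P1 Ighm was at 1.03-fold, Ighd at 1.07-fold and Igha at 0.857-fold of mock. The fold intervals of the 4 IgG genes included 1. In bulk samples a smaller share of cells of one class and less RNA in each such cell cannot be told apart.

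**Figure D2:**
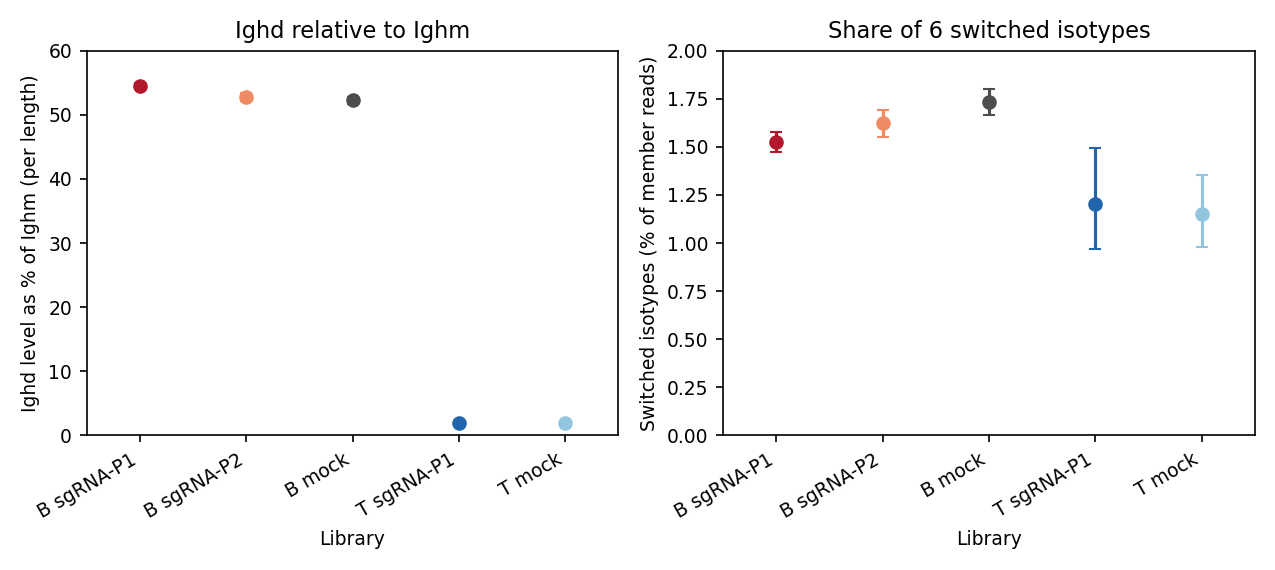
Left, the Ighd level as a percentage of the Ighm level per gene length; right, the percentage of reads on the 8 genes that fell on the 6 switched isotypes. Points are single libraries with 95% counting intervals. The Ighd level is above 50% of Ighm in B cells and under 2% in T cells, and the switched share lies between 1.15 and 1.73%.

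The guide comparisons ask whether repression of Pou2f1 went with a change of isotype RNA. Pou2f1 itself stood at 91.1 CPM with sgRNA-P1 and 86.5 CPM with sgRNA-P2, against 156.7 CPM in mock B cells, and at 66.1 CPM with sgRNA-P1 against 138.1 CPM in mock T cells. Its row covers transcripts of both promoters, and its T cell values are uncertain because a gene of the opposite strand that T cells express shares its end. Genes with 5 CPM or more in the higher library were called by size, at 1.5-fold or more, since 1 sample a group gives no test. Log2 fold changes were taken after adding 1 read to each count.

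With sgRNA-P1 in B cells, 0 of the 7 members at 5 CPM or more passed 1.5-fold against mock, where 0.735% of 10062 genes did. Ighd was higher by a log2 fold change of 0.10 [0.09 to 0.12] and Ighm by 0.04 [0.03 to 0.05]. Igha was lower, at -0.22 [-0.34 to -0.11]. These 3 intervals exclude 0. Ighg1 stood at -0.10 [-0.40 to 0.20], Ighg3 at -0.06 [-0.22 to 0.11], Ighg2b at -0.05 [-0.19 to 0.10] and Ighg2c at -0.04 [-0.44 to 0.36]. The median of the 7 was -0.05, against -0.01 over all genes compared.

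With sgRNA-P2 in B cells, 0 of 7 members passed 1.5-fold against mock, where 0.278% of 10061 genes did. Ighd had a log2 fold change of 0.06 [0.04 to 0.07] and Ighm of 0.04 [0.03 to 0.05], and both intervals exclude 0. Igha, at -0.02 [-0.15 to 0.11], was close to its mock level. The IgG genes lay between -0.16 (Ighg1) and -0.04 (Ighg2c), with intervals that include 0. Both guide libraries are set against 1 mock library, so their differences share it.

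Set directly against sgRNA-P2, sgRNA-P1 left 0 of 7 members past 1.5-fold, where 0.418% of 10059 genes were. Igha was lower with sgRNA-P1, at -0.20 [-0.33 to -0.08], and Ighd higher, at 0.05 [0.03 to 0.06]. Ighm stood at 0.00 [-0.01 to 0.01]. The 4 IgG genes lay between -0.01 and 0.06, each with an interval that includes 0. The widest of these intervals, that of Ighg2c, ran from -0.44 to 0.42, so a change of up to about that size in Ighg2c would not have been detectable at this depth.

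In T cells 2 members reached 5 CPM, and 0 of 2 passed 1.5-fold with sgRNA-P1 against mock, where 0.11% of 10007 genes did. Ighm was lower, at -0.08 [-0.12 to -0.04], and Ighd stood at -0.05 [-0.38 to 0.26]. Under 5 CPM, Igha stood at -0.10 [-0.58 to 0.37] and Ighg2b at 0.29 [-0.63 to 1.24]. Ighm was therefore on opposite sides of its mock level in B and T cells with sgRNA-P1, by small amounts in both.

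**Figure D3:**
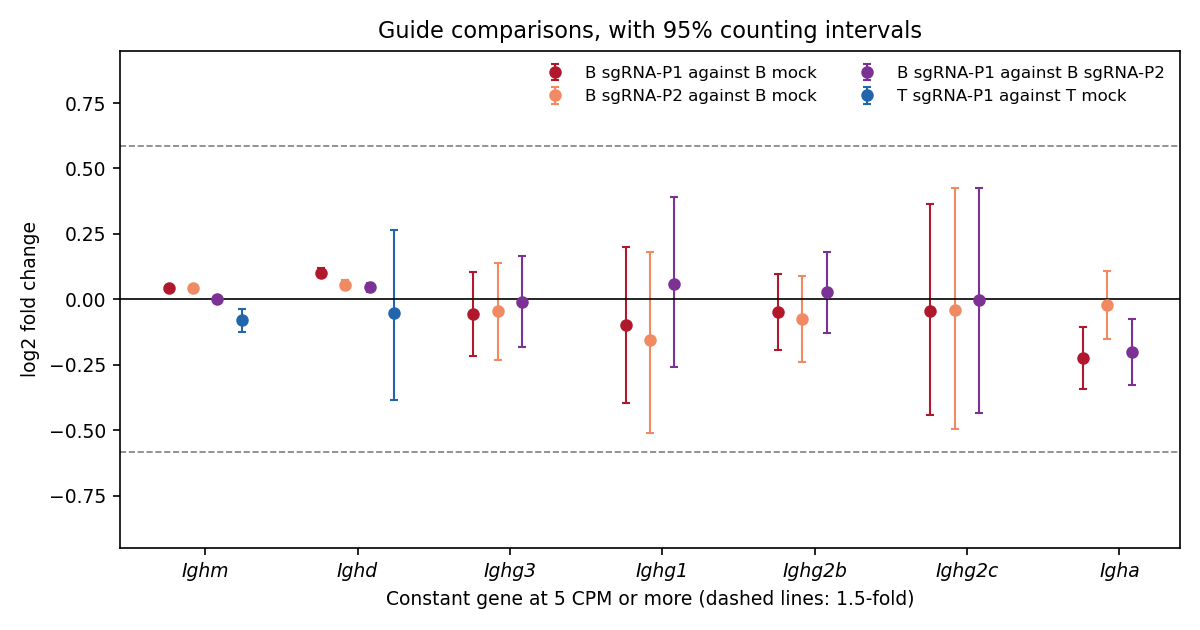
Log2 fold change of each constant gene at 5 CPM or more in the 4 guide comparisons, with 95% counting intervals and dashed lines at 1.5-fold. All points lie between -0.22 and 0.10, inside the dashed lines; Igha is below 0 with sgRNA-P1 in B cells against both mock and sgRNA-P2.

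The only test of the guides came from a model over the 5 libraries, with a term for cell type and one for the presence of a guide. edgeR's quasi-likelihood test with Benjamini-Hochberg adjustment called 0 of 7 members for the guide term, where 0.0284% of 17581 genes were called (5 genes). At an unadjusted p under 0.05, 427 genes and 0 of the 7 members passed, and DESeq2 called 4 genes and 0 members. The guide term was -0.12 for Igha (SE 0.09, adjusted p = 1) and 0.05 for Ighd (SE 0.06, adjusted p = 1) on the log2 scale. For Ighm it was -0.01 (SE 0.05, adjusted p = 1). Pou2f1 had a guide term of -0.92 (SE 0.06, adjusted p = 5.67e-06). The model has 2 residual degrees of freedom and treats the 3 guide libraries as repeats of 1 effect.

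All 8 members had higher levels in B cells than in T cells, Ighe by 10 reads or fewer a library, and the factors were very unequal. Between the mock libraries the level of Ighd was 458-fold higher in B cells [402 to 522], and that of Ighm 16.4-fold higher [16.1 to 16.7]. Igha was 20.2-fold higher [16.6 to 24.7], Ighg2b 56.0-fold [37.9 to 86.4] and Ighg3 156-fold [73.6 to 340]. Against a floor of 3 reads in T cells, Ighg1 was at least 237-fold, Ighg2c at least 129-fold and Ighe at least 7.11-fold higher. These bounds set the B cell level against the floor alone. With counting error in both libraries, the lower limit of the fold was 95.4 for Ighg1, 51.5 for Ighg2c and 1.95 for Ighe. Between the sgRNA-P1 libraries the fold was 510 for Ighd [428 to 613], 17.9 for Ighm [17.4 to 18.3], 18.6 for Igha [14.2 to 24.5] and 44.6 for Ighg2b [27.3 to 73.4]. The intervals of Ighm and Ighd stood far apart in both pairs, while those of Ighm and Igha touched.

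By size, 7 of 7 members at 5 CPM or more were past 1.5-fold in mock B cells, where 18.4% of 10804 genes were higher in B cells. With sgRNA-P1 it was also 7 of 7, where 19.6% of 10827 genes were. In both pairs 5 of the 7 reached 5 CPM through B cells alone, so these counts describe the members and give no support. In edgeR's model 7 of 7 members were called higher in B cells, where 31.8% of 17581 genes were called higher and 32.4% lower. Ighg1, Ighg2c and Ighg3 passed its filter through B cells alone, so this count too describes the members and gives no support. Ighm, Ighd, Ighg2b and Igha were above the filter's level in both cell types. The log2 difference of B over T cells was 4.12 for Ighm (SE 0.06, adjusted p = 8.6e-17), 8.91 for Ighd (SE 0.08, adjusted p = 6.23e-19) and 4.34 for Igha (SE 0.10, adjusted p = 8.71e-15).

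The T cell level of Ighm was set beside markers of B cells. Mock T cells held Ighm at 6.09% of the mock B cell level and Igha at 4.96%, but Ighd at 0.219%. The summed level of 14 B cell markers was 41.0 CPM in mock T cells against 14901 CPM in mock B cells, or 0.275%, and 37.5 against 15097 CPM with sgRNA-P1, or 0.248%. None of the 14 was at 0 in T cells, where they ran from 0.0416 CPM (Fcrla) to 18.6 CPM (Blk) in mock. Their B over T folds ran from 36.2 to 7933 in the mock pair, with a median of 1882. No marker had a fold as low as Ighm or Igha, and in the mock pair 5 of 14 had a lower fold than Ighd. The share of these T cell reads that came from B cells was not tested.

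Rows between the joining segments and Ighm were read next, chosen after their values had been seen. Gm56536, a predicted gene 3563 bases from Ighm on its variable side, had 244.8 CPM in mock B cells and 10.3 CPM in mock T cells, a fold of 23.7 [21.3 to 26.4]. Gm54573, nearer to Ighm, had a fold of 9.66 [6.06 to 15.5]. Gm54570 had a fold of 24.8 [9.16 to 95.7], on 8 reads in mock T cells. Gm54571 had 6 reads in mock B cells and none in T cells, and Gm54572 had no read in any library. The joining segment Ighj4 had a fold of 29.8 [20.6 to 44.8], Ighj3 of 16.8 [9.97 to 28.4], Ighj2 of 5.97 [3.89 to 9.38] and Ighj1, the farthest from Ighm, of 2.04 [1.30 to 3.18]. Mock T cells had 88 reads on Ighj1 and 60 on Ighj4, while mock B cells had 84 on Ighj1 and 839 on Ighj4. Ighd4-1, the diversity segment next to the joining segments, had 0.739 CPM in mock B cells and 0.499 CPM in mock T cells. The interval of that fold includes 1. Between the sgRNA-P1 libraries its fold was 2.9 [1.29 to 7.36], which excludes 1, on 56 reads in B cells and 16 in T cells. By contrast the 183 rows of variable segments summed to 869 CPM in mock B cells and 1.30 CPM in mock T cells, a fold of 667. Relative to the B cell level, T cell RNA was thus higher at Ighm, Igha and the joining segments than at Ighd and the variable segments. In CPM, mock T cells had more Ighd (6.45) than Igha (3.11). The same order of Ighj1, Ighj2, Ighj3 and Ighj4 was seen between the sgRNA-P1 libraries, with folds of 1.54, 6.32, 12.4 and 14.2, and there the interval of Ighj1 includes 1.

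**Figure D4:**
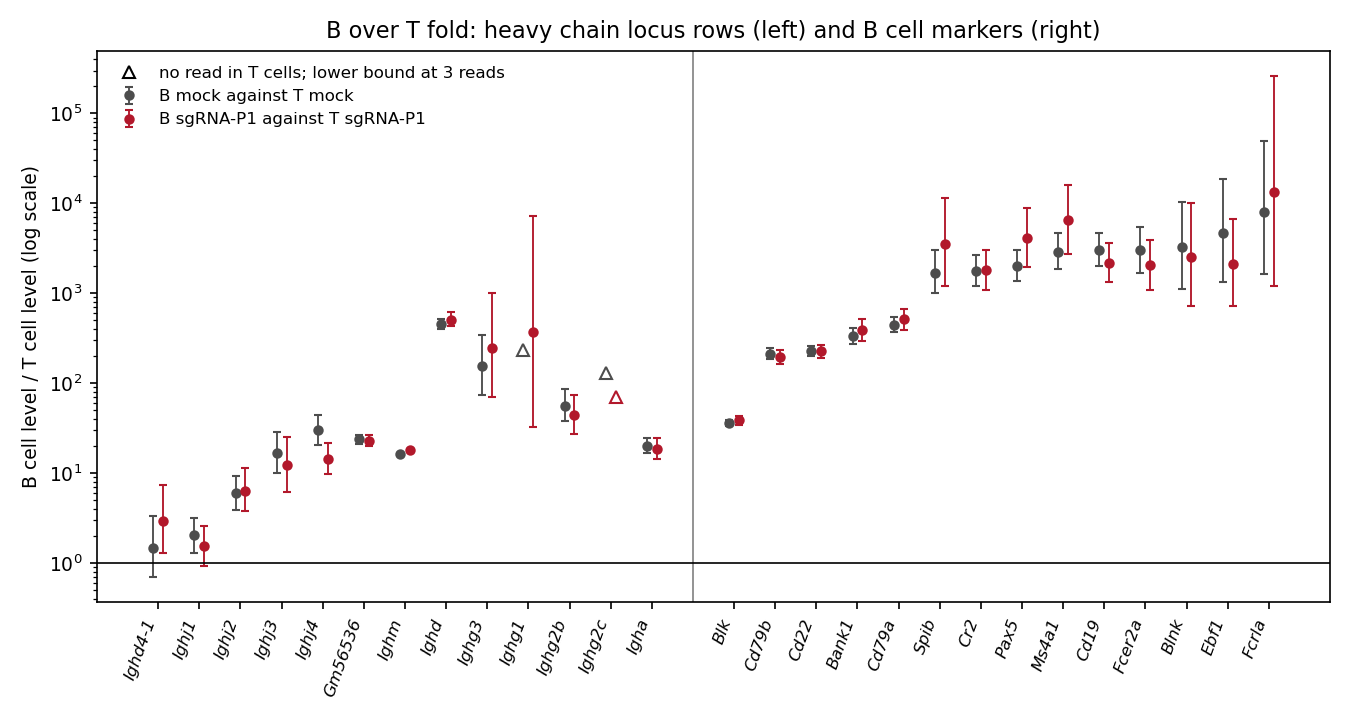
B cell level divided by T cell level, on a log axis, for rows of the heavy chain locus in their order along the chromosome (left) and 14 B cell markers in order of fold (right). Points carry 95% counting intervals for both pairs of libraries, and open triangles are lower bounds against 3 reads. Ighm and Igha sit between 16.4 and 20.2-fold, below every B cell marker, while Ighd sits at 458 and 510-fold.

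Genes that act with the members were read by list. Some list genes passed the model's filter through B cells alone, such as Iglc3, Fcrla and Ebf1. These had 0.0139, 0.0416 and 0.0693 CPM in mock T cells. Counts of list genes called higher in B cells, here and below, therefore describe the lists and give no support. The partners of the heavy chain in the B cell receptor were all higher in B cells: 6 of 6 in edgeR's model, against 31.8% of all genes, with a median log2 fold change of 10.34 between the mock libraries against -0.02 over all genes. Igkc, the kappa light chain constant gene, had 1938 CPM with sgRNA-P1, 1870 CPM with sgRNA-P2 and 1771 CPM in mock B cells, against 2.15 CPM with sgRNA-P1 and 2.66 CPM in mock T cells. Against mock in B cells its log2 fold change was 0.13 with sgRNA-P1 [0.11 to 0.15] and 0.08 with sgRNA-P2 [0.05 to 0.10]. The lambda genes Iglc3 (-0.29 [-0.38 to -0.20]) and Iglc2 (-0.15 [-0.20 to -0.09]) were below mock with sgRNA-P1, as was Cd79b (-0.12 [-0.15 to -0.10]), a signalling chain of the receptor. With sgRNA-P2 Iglc3 stood at -0.13 [-0.23 to -0.03] and Cd79b at -0.05 [-0.08 to -0.02]. Iglc2 had 277.9 CPM with sgRNA-P2 against 282.0 CPM in mock. None of the 6 passed 1.5-fold against mock with either guide, and edgeR called 0 of 6 for the guide term, with 1 of 6 at an unadjusted p under 0.05 (0 of 6 in DESeq2).

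The genes of heavy chain RNA processing act on the choice between IgM and IgD or between membrane and secreted forms. Zfp318, which in mouse is needed for the long transcript that carries Ighd, had 627.7 CPM with sgRNA-P1, 590.2 CPM with sgRNA-P2 and 563.7 CPM in mock B cells. Its T cell levels were 67.6 CPM with sgRNA-P1 and 69.6 CPM in mock. Its log2 fold change against mock in B cells was 0.16 with sgRNA-P1 [0.12 to 0.19] and 0.07 with sgRNA-P2 [0.02 to 0.11]. Pcf11 and Cstf2, both of the cleavage and polyadenylation machinery, were at 0.17 [0.12 to 0.22] and 0.18 [0.09 to 0.27] with sgRNA-P1. With sgRNA-P2 Pcf11 had 296.7 CPM against 292.3 CPM in mock, and Cstf2 stood at 0.08 [-0.02 to 0.18]. Of the 7 genes at 5 CPM or more in B cells, 6 were above mock with sgRNA-P1 and 5 with sgRNA-P2, and 0 passed 1.5-fold. Their medians were 0.11 and 0.03, against -0.008 and -0.004 over all genes compared. The share of all genes above mock was not counted, so these counts give no direction for the list. Between cell types edgeR called 5 of 8 higher and 3 of 8 lower in B cells, against 31.8% and 32.4% of all genes. Hnrnpll, a splicing regulator, was lower in B cells, at 0.237 CPM in mock against 75.8 CPM in mock T cells, and Ell2, an elongation factor used by plasma cells, higher, at 56.2 against 5.56 CPM.

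The class switching list moved little with the guides. Of 25 genes, 23 reached 5 CPM in B cells, and their median was 0.01 with sgRNA-P1 and 0.02 with sgRNA-P2. None passed 1.5-fold. The furthest from mock was Xrcc4, of the end-joining machinery, at 0.37 with sgRNA-P1 [0.11 to 0.65] and 0.22 with sgRNA-P2 [-0.10 to 0.53]. Ung, which removes uracil from DNA, stood at -0.42 in sgRNA-P1 against sgRNA-P2 [-0.73 to -0.09]. Between cell types edgeR called 7 of 25 higher and 8 of 25 lower in B cells, near the 31.8% and 32.4% of all genes, with Shld1, of the shieldin complex, at 6.95 CPM in mock B cells against 17.4 CPM in mock T cells.

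Genes of antibody secretion were also set against the members, since plasma cells carry much secreted heavy chain RNA. With sgRNA-P1, 10 of 15 were below and 5 above mock, and 0 passed 1.5-fold. Their median was -0.04, against -0.008 over all genes compared. The share of all genes below mock was not counted, so these counts give no direction for the list. Sdc1, a plasma cell surface proteoglycan, had 15.5 CPM with sgRNA-P1, 16.5 CPM with sgRNA-P2 and 19.7 CPM in mock B cells, and Mzb1, an endoplasmic reticulum cofactor, had 9.94, 12.3 and 12.6 CPM in the same order. Against mock, sgRNA-P1 gave -0.35 for Sdc1 [-0.56 to -0.13] and -0.34 for Mzb1 [-0.61 to -0.07]. Prdm1, the regulator of plasma cell formation, stood at 0.25 [-0.15 to 0.65] and Derl3 had 9.77 CPM with sgRNA-P1 against 9.05 CPM in mock. Jchain, which joins IgM and IgA into polymers, had 103.2 CPM with sgRNA-P1, 99.0 CPM with sgRNA-P2 and 105.8 CPM in mock. The summed level of the 7 plasma cell markers was 213.7 CPM with sgRNA-P1, 214.7 CPM with sgRNA-P2 and 225.3 CPM in mock B cells, with 1 of the 7 at 0 in each guide library. Of the 6 at 5 CPM or more, 4 were below mock with either guide, a count with the same limit. The part of plasma cells in the Igha difference was not tested. Between cell types edgeR called 13 of 16 secretion genes higher and 3 lower in B cells, against 31.8% and 32.4% of all genes.

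Among regulators of heavy chain transcription, Pou2f1 was the 1 gene of 19 past 1.5-fold against mock with either guide, and edgeR called it alone for the guide term. With sgRNA-P1 15 of 19 regulators were above mock, with a median of 0.06, and with sgRNA-P2 10 of 19, with a median of 0.02. Over all genes compared the medians were -0.008 and -0.004. The share of all genes above mock was not counted, so these counts are not read as a shift of the list. Tcf4, an E protein that binds heavy chain enhancers, stood at 0.21 with sgRNA-P1 [0.15 to 0.28]. With sgRNA-P2 Tcf4 had 196.5 CPM against 192.0 CPM in mock. Bcl6, a repressor of plasma cell genes, stood at 0.20 with sgRNA-P1 [0.11 to 0.29] and 0.05 with sgRNA-P2 [-0.05 to 0.15]. Between cell types 13 of 19 were called higher and 4 lower in B cells, against 31.8% and 32.4% of all genes. Pax5, higher in B cells, was at 1477 CPM in mock B cells against 0.735 CPM in mock T cells.

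Of the receptors that bind antibody, 9 of 12 were called higher in B cells and 2 lower, against 31.8% and 32.4% of all genes. Fcmr, the IgM receptor, had 905.1 CPM with sgRNA-P1 and 873.9 CPM in mock B cells, and 0.626 CPM with sgRNA-P1 and 0.666 CPM in mock T cells. With the guides 0 of 10 passed 1.5-fold in B cells, and the medians were -0.01 with sgRNA-P1 and -0.04 with sgRNA-P2. Pigr, which carries polymeric IgA and IgM across epithelia, was at -0.41 with sgRNA-P2 [-0.80 to -0.03]. With sgRNA-P1 Pigr had 8.69 CPM against 8.99 CPM in mock. Among signals for isotype choice, 11 of 19 were called higher and 6 lower in B cells, against 31.8% and 32.4% of all genes, and 0 of 19 passed 1.5-fold with a guide. Il5ra, a cytokine receptor chain linked to IgA responses in mouse, was at 0.14 with sgRNA-P1 [0.06 to 0.23] and 0.17 with sgRNA-P2 [0.07 to 0.27]. For the guide term edgeR called 0 genes of the switching, RNA processing, secretion, receptor and signal lists, with 0, 0, 0, 0 and 1 at an unadjusted p under 0.05, and DESeq2 called 0 as well.

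Marker lists of other cells were checked in the same libraries. The 14 T cell markers summed to between 50.8 and 52.4 CPM in B cells, of which Lck gave 45.2 to 46.8 CPM, and to 6501 and 6562 CPM in T cells. Lists of myeloid, dendritic and erythroid cells summed to at most 10.2 CPM in any library. Natural killer cell markers summed to 101 CPM with sgRNA-P1 and 99.0 CPM in mock T cells, mostly Nkg7.

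The genes most like a member over the 5 libraries were found by the distance between centred log2(CPM + 1) profiles among 9955 genes outside the immunoglobulin loci. This describes 5 libraries in which cell type is the main difference. Adding 1 CPM shrinks the fold of genes that are low in T cells, so a small distance need not mean an equal B over T fold. Ighm was nearest to Zc3h12c (distance 0.09), Cxcr5 (0.11), Ncf1, Slc41a2 and Tbc1d9. Slc41a2 and Tbc1d9 were under 1 CPM in T cells. Tbc1d9 had 19.18 CPM in mock B cells and 0.1941 CPM in mock T cells, a larger fold than the 16.4 of Ighm. Ncf1, at 300.4 and 16.11 CPM, was closer to Ighm in fold. Cxcr5, a chemokine receptor of B cell follicles, had 319.8, 308.4 and 307.1 CPM in B cells with sgRNA-P1, with sgRNA-P2 and in mock and 17.9 and 19.1 CPM in sgRNA-P1 and mock T cells. Ighd was nearest to Ciita (0.17), the class II transactivator, then H2-DMb2, Cd79a, Rasgrp3 and Spib. Igha was nearest to Ackr3 (0.10), Sh3tc1, H2-DMa, Spns3 and Ckap4, and Ighg2b to Csf2rb (0.09), Plbd1, Gapt, H2-Ob and Cd83. Csf2rb had 23.56 CPM in mock B cells and 0.05547 CPM in mock T cells, a larger fold than the 56.0 of Ighg2b. H2-Ob, at 1937.9 and 82.27 CPM, had a smaller one.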

How the data were processed

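Raw gene counts, as whole numbers in 10 columns laid out as by featureCounts, are what the authors deposited. The submitters' processing notes name HISAT2, featureCounts and the builds hg38 and mm39. The sources used here do not state versions, annotation release, strand setting, pairing or the treatment of multi-mapping reads. Members and gene lists were chosen with earlier results of these data known. The columns of each group matched 1 count divided in a fixed proportion to within 1 read (mean chi-square per gene 0.00229 to 0.00283 over genes with 20 or more reads) and were summed, so each of the 5 groups is 1 sample.

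Counts were scaled by TMM factors (0.982 to 1.01; edgeR 4.0.16, R 4.3.3). Levels of different genes were compared per kilobase of the deposited length, which, also in the authors' table, counts each exon base once. Among genes under 10 reads, 72.0 to 74.8% of totals were even, as counting both reads of a pair gives, so exact Poisson and conditional 95% intervals and Wilson intervals were computed on reads divided by 2. They cover counting error only, as does the floor of 3 reads. The 1.5-fold rule used a prior of 1 read and 5 CPM. The model used edgeR's quasi-likelihood test over all genes at an FDR of 0.05, tested on simulated data. DESeq2 1.42.0, total reads, scaling without immunoglobulin rows, filters, a prior of 5 reads, a trend on GC content and length, single columns and left-out libraries were alternatives. Named genes were all members, Pou2f1, up to 4 genes of each list and comparison by absolute fold change and the 5 genes nearest to 4 members. Jchain, Fcmr and Pax5 where not among those 4, and the rows beside Ighm, were chosen after their values were seen. 1 gene of the class switching list is not reported here. GENCODE M21 (GRCm38) served for transcript sequence and GC content (48826 of 56893 symbols) and for no coordinate.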

Additional observations from a re-analysis of the deposited data

Results flagged for a closer look

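Ighm had log2 fold changes of opposite sign for sgRNA-P1 against mock in the 2 cell types, 0.0424 in B cells [0.03 to 0.05] and -0.0804 in T cells [-0.12 to -0.04]. It was picked out because both counting intervals exclude 0 on opposite sides. The difference between the cell types was not tested, since each value rests on 1 library a group, and both are well under 1.5-fold. Over the alternatives in scaling, filter, prior, single columns and trend, the value ran from 0.02 to 0.10 in B cells and from -0.10 to -0.06 in T cells.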

How the results depend on the processing

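No paired analysis was possible because the 2 columns of each group are 1 library divided in a fixed proportion. No result changed sign past its threshold, and 0 of the members passed 1.5-fold in a guide comparison under any alternative but one. With no filter on low levels 1 member did in each of B sgRNA-P1 and B sgRNA-P2 against mock (Ighe, 10 reads or fewer) and 1 in T cells (Ighg1, at 1 read). The counts of all genes past 1.5-fold depended on that filter. With none they were 6220 and 7124 for sgRNA-P1 and sgRNA-P2 against mock in B cells, 6413 between the guides, 6560 in T cells, and 13517 (mock) and 15378 (sgRNA-P1) between B and T cells. At 20 CPM they were 15, 2, 7, 6, 2531 and 2736. Subtracting a trend on GC content and length left 38 for sgRNA-P1 against mock and 25 between the guides. Of these, 52.6% and 56.0% were higher with sgRNA-P1, against 64.9% and 71.4% of the genes past 1.5-fold without that step. At 20 CPM the share was 86.7% for sgRNA-P1 against mock.

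Per length the switched share was 1.14, 1.21 and 1.30% in B cells with sgRNA-P1, with sgRNA-P2 and in mock, and 0.834 and 0.816% in sgRNA-P1 and mock T cells. Without the length correction, and before rounding to read pairs, it was 1.53, 1.62, 1.73, 1.17 and 1.15%. Ighm between the guides ranged from -0.02 under total reads to 0.04 with the trend subtracted, so it has no set direction. The guide term of edgeR's model called 2 genes under total reads, 32 with no filter and 1 at 5 CPM. Leaving out 1 library gave 3 to 18 genes: 18 without B sgRNA-P1, 14 without B sgRNA-P2, 4 without B mock, 3 without T sgRNA-P1 and 8 without T mock, and 0 members in each. The cause of these moves was not tested. Depth limits Ighe in all libraries and Ighg1, Ighg2c and Ighg3 in T cells.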
